A study of Mus musculus with 16 samples.

Results

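The brains of 4 mice lacking both Grn and Trem2 (Grn/Trem2 double knockout) were compared with those of 4 mice lacking Grn alone (Grn knockout), so that the difference between the groups is the loss of Trem2 where progranulin is already absent. All animals were female and 6 months old, and RNA came from total brain. The 8 animals were chosen by their genotype label out of 16, the other groups being 4 wild type and 4 Trem2 knockout mice. Transcripts were counted with the nCounter Neuropathology panel, in which barcoded probes are hybridized to RNA and counted without amplification. Of 770 panel genes, 708 had a mean of at least 20 normalized counts over the 16 animals and were tested. The labels name neither the alleles nor the strain background, and give no run or cartridge for the samples.

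Grn encodes progranulin, a protein that is secreted and also delivered to lysosomes, where it is processed into granulins. Trem2 encodes a surface receptor of microglia that binds lipids and lipoproteins and signals through the adaptor DAP12 to promote phagocytosis, survival and the switch from a resting to an activated state. Microglia without progranulin are known for an activated state with raised lysosomal and complement genes. The comparison addresses the change in brain transcripts when the receptor is lost from animals without progranulin.

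Values are normalized counts, scaled by the authors to a set of reference genes. Differences are double knockout minus Grn knockout on the log2(value + 1) scale, fitted with limma over all 4 genotypes, with Benjamini-Hochberg adjustment over the 708 genes. Means are given ± SD with n = 4.

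Trem2 followed the labels. The Grn knockout animals measured 239.6, 251, 188 and 248 normalized counts, and the double knockout animals 5.02, 17.4, 13.5 and 20.4. All 4 double knockout values lay below the background threshold of their animal (the mean plus 2 SD of 8 negative control probes), so that Trem2 was at least 8.30-fold lower (limma adjusted p = 1.7e-05). The wild type level was 143 ± 13.2. Grn was below background in all 8 animals, at 13.6 ± 4.72 in Grn knockout animals and 16.9 ± 4.62 in double knockout animals, against 617 ± 45.4 in wild type.

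Depth overlapped between the groups. Recovered gene counts ran from 477113 to 767742 in the Grn knockout and from 528008 to 730848 in the double knockout (two-sided exact permutation p = 0.714). Scaled negative controls averaged 13.4 ± 1.90 and 14.7 ± 1.97 per probe (two-sided exact permutation p = 0.371). The background threshold of an animal ran from 16.3 to 30.3 in the Grn knockout and from 22.7 to 36.1 in the double knockout. Counts of animals above background therefore depend on these thresholds as well as on the gene. Defining genes of brain tissue were present, with all 15 measured pan-neuronal, all 7 astrocyte and all 21 oligodendrocyte genes above the minimum mean. Of 13 choroid plexus genes searched, 0 were on the panel.

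Where progranulin was absent, the complement gene C1qb was lower without Trem2, and 0 genes were called higher. Of 708 genes, 2 passed an adjusted p of 0.05 with limma, C1qb and Trem2 itself, which is 0.282% of those tested. An unadjusted p under 0.05 was reached by 50 genes (7.06%), 31 of them lower (4.38%) and 19 higher (2.68%). The 4 and 4 animals did not overlap for 31 genes (4.38%), 18 of them lower (2.54%) and 13 higher (1.84%). Across all tested genes the median difference was 0.02, and 44.1% lay below 0.

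**Figure D1:**
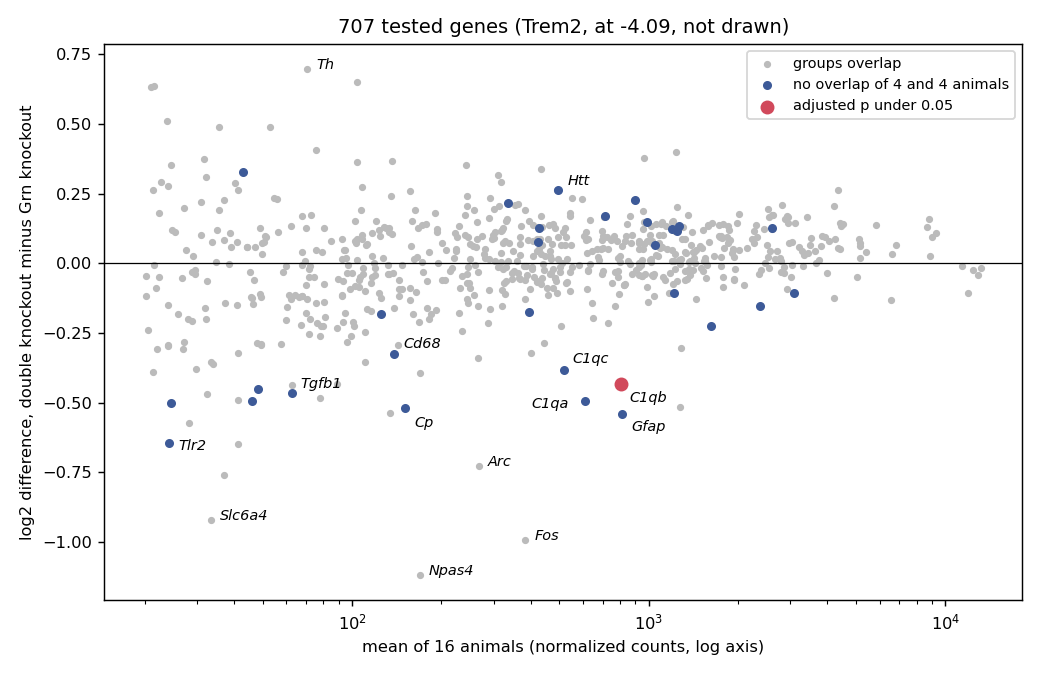
Each point is 1 of 707 tested genes, with its mean over the 16 animals in normalized counts on a log axis and its log2 difference between the double knockout and the Grn knockout. Trem2, at -4.09, is not drawn. Blue points are genes whose 4 and 4 animals do not overlap and the red point is C1qb, at -0.43; Npas4 and Fos have larger differences but overlapping animals.

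C1q is the recognition molecule of the classical complement pathway, built from A, B and C chains, and microglia are its main source in brain. The genes lie side by side on mouse chromosome 4 (GRCm38.p6, RefSeq), with C1qb at 136880126 to 136886200, C1qc at 136889801 to 136892936 and C1qa at 136895916 to 136898844. Double knockout and Grn knockout animals did not overlap for C1qa, C1qb or C1qc, and RefSeq's promoter table holds no entry for C1qa. The 250 bases before the start site that the promoter table uses are shown for C1qb (chr4:136886201-136886450, minus strand) and C1qc (chr4:136892915-136893164, minus strand). For C1qc that site lies 22 bases inside the span of the gene given above, and for C1qb at its edge. Capitals mark GAGGAA, a core of binding sites for the myeloid factor PU.1, or its reverse complement TTCCTC. Sequences are from RefSeq, read 5′ to 3′ toward the gene.
C1qb: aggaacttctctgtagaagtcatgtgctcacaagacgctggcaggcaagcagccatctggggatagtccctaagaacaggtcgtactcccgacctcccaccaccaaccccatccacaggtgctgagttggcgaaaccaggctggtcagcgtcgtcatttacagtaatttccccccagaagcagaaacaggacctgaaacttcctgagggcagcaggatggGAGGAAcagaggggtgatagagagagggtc
C1qc: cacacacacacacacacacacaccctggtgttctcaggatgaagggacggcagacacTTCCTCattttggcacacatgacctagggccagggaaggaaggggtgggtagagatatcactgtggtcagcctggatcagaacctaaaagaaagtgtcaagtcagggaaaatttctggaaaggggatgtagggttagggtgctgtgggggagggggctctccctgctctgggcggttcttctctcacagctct
Each holds 1 match, in C1qb from 30 to 25 bases before that site and in C1qc, on the opposite strand, from 193 to 188 bases before it. On either strand the motif occurs in 23.3% of 32851 windows of this length before mouse genes. TGACTCA, the AP-1 motif, which overlaps no GAGGAA match here, occurs in 4.46% of the windows and in neither of these.

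C1qb encodes the B chain. It measured 956, 1180.4, 983 and 1242 in the Grn knockout and 817, 797, 819 and 774 in the double knockout. The double knockout animals lay within a narrow band below all Grn knockout animals. The fall was 1.35-fold (log2 difference -0.43, SE 0.08, 95% confidence interval -0.61 to -0.26, limma adjusted p = 0.0353). Wild type animals measured 756 ± 43.9 and Trem2 knockout animals 571 ± 27.0.

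The size of this difference changed little between fits, from -0.49 to -0.37 with any 1 animal left out, but the call was close to the threshold. It was lost in 12 of 16 fits that left out 1 animal (limma adjusted p from 0.0113 to 0.196 over the 16), and these included fits without single animals of each of the 4 genotypes. It was also lost with only these 2 groups in the fit (limma adjusted p = 0.263), under scaling to the positive control probes (0.999) and without the animal with the fewest counts in each group (0.0741).

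C1qa, of the A chain, measured 826, 963, 688 and 894 in the Grn knockout and 598, 544, 600.0 and 637 in the double knockout. The groups did not overlap, and the difference was -0.49 (SE 0.12, limma adjusted p = 0.216). C1qc, of the C chain, measured 652, 694, 584 and 710.5 against 495, 438, 553 and 539, again without overlap (-0.38, SE 0.11, limma adjusted p = 0.309). C1qa and C1qc passed when the animals were weighted by their spread (adjusted p = 0.00539 and 0.0293), and C1qa also without Grn knockout replicate 3 (0.0478). The double knockout means of C1qa (595 ± 38.5) and C1qc (506 ± 51.7) stood beside wild type means of 533 ± 23.8 and 491 ± 36.9 and Trem2 knockout means of 470.3 ± 87.8 and 409 ± 55.1.

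**Figure D2:**
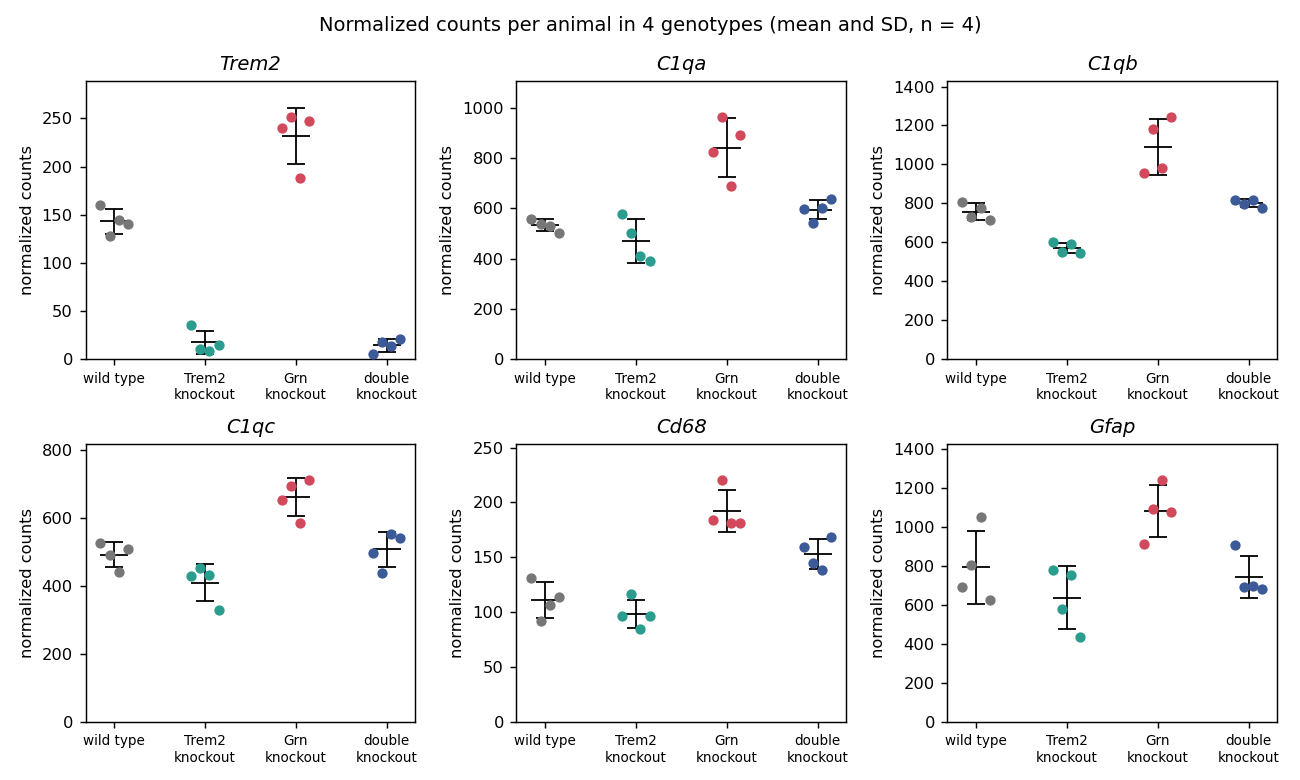
Normalized counts of 6 genes in every animal of the 4 genotypes, on linear axes from 0; points are animals, and the bars give mean and SD. For C1qa, C1qb, C1qc, Cd68 and Gfap all 4 double knockout animals lie below all 4 Grn knockout animals, and Trem2 is near 0 in both groups that lack it.

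The other tested complement genes had lower counts than the C1q chains, and C3 and C4a lay close to background. C3, the component on which all complement pathways converge, measured 65.3, 47.7, 39.3 and 33.2 against 28.1, 34.8, 22.1 and 46.2, with overlapping groups (-0.49, limma adjusted p = 0.677). C4a, a relative of the classical pathway component C4, had -0.38 (limma adjusted p = 0.779) and lay above background in 3 of 4 double knockout animals. Itgam, the alpha chain of complement receptor 3, measured 115 ± 23.2 and 112 ± 10.4, and its difference of -0.02 turned to 0.02 with quantile normalization. Of the 6 tested members of the complement list, 1 passed, 6 lay below 0 (5 with quantile normalization), and the median was -0.41, beside 44.1% below 0 and a median of 0.02 over all genes.

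Of the receptors and identity genes of microglia, 0 passed. The summed level of the 9 measured homeostatic microglia genes ran from 3351 to 3929 in the Grn knockout and from 3156 to 3453 in the double knockout, so the groups overlapped. In bulk brain RNA, fewer microglia and less RNA per microglial cell cannot be told apart, and the part of cell number in the C1q difference was not tested. Cx3cr1, the fractalkine receptor, measured 517 ± 63.3 in Grn knockout animals and 477 ± 25.1 in double knockout animals (-0.11, 95% confidence interval -0.36 to 0.14). Csf1r, the receptor on which microglial survival depends, measured 533 ± 37.4 and 513 ± 91.6 (-0.07, interval -0.34 to 0.20). P2ry12, a purinergic receptor of resting microglia, measured 154 ± 8.08 and 153 ± 17.9 (-0.01, interval -0.30 to 0.28), with a sign that turned under quantile normalization and positive control scaling.

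Tmem119, a membrane protein of resident microglia, had -0.21 and Fcrls, an Fc receptor-like protein, 0.13, each with overlapping groups. The sign for Fcrls turned without Grn knockout replicate 3 (-0.02). Tgfbr2, a receptor for TGF-beta, measured 189 ± 18.4 and 144 ± 23.1 (-0.40, limma adjusted p = 0.492). Of 8 tested homeostatic genes, 0 passed, 7 lay below 0 (5 with quantile normalization) and the median was -0.09.

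Among activated microglia genes, Cd68, a lysosomal glycoprotein of phagocytes, measured 184, 220.4, 181.5 and 181.1 in the Grn knockout and 160, 145, 138 and 168 in the double knockout. All double knockout animals lay below all Grn knockout animals and, at 153 ± 13.6, above the wild type mean of 111 ± 16.2. The difference from the Grn knockout was -0.32 (SE 0.12, interval -0.57 to -0.08), and it did not pass (limma adjusted p = 0.492). Ncf1, a cytosolic subunit of the phagocyte oxidase, measured 84.4, 59.3, 48.8 and 50.4 against 37.1, 47.4, 42.3 and 46.2. The groups did not overlap, and Grn knockout replicate 1 was the highest (-0.45, limma adjusted p = 0.492; -0.28 without it).

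Tlr2, a receptor for microbial lipoproteins, measured 26.3, 36.0, 28.4 and 34.3 against 15.1, 16.4, 25.0 and 23.1 (-0.65, SE 0.20, limma adjusted p = 0.436). It was above background in all 4 Grn knockout animals and in 1 of 4 double knockout animals, so its lower values are at the limit of measurement. Apoe, a lipid carrier and TREM2 ligand, measured 4612 ± 184 and 4233 ± 160.3, with overlapping groups (-0.12, limma adjusted p = 0.778). Of 7 tested members of the activated microglia list, 0 passed, 6 lay below 0 and the median was -0.31. Tspo, a mitochondrial outer membrane protein widely imaged as a sign of glial activation, measured 56.3, 63.6, 44.7 and 56.8 against 38.1, 44.5, 40.4 and 32.6. These groups did not overlap, with 3 of 4 double knockout animals above background (-0.49, SE 0.14, limma adjusted p = 0.309).

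The list of TREM2 signalling holds kinases, the inositol trisphosphate receptor channels Itpr1, Itpr2 and Itpr3, and Rela, a transcription factor, all active in most cell types. Of its 12 tested genes 0 passed and 10 lay above 0 (7 with quantile normalization), with a median of 0.08 and a range of -0.05 to 0.15. Pik3cb, a catalytic subunit of phosphoinositide 3-kinase, measured 408 ± 12.7 in Grn knockout animals and 445 ± 11.6 in double knockout animals without overlap (0.13, limma adjusted p = 0.778). Akt1, a kinase that acts after it, had 0.10.

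Lysosomal genes lay close to the Grn knockout level. Of 23 tested genes, 0 passed, 14 lay below 0 and the median was -0.02, with a range of -0.32 (Cd68) to 0.20 (Atp6v0e2). Lamp1, a structural protein of the lysosomal membrane, measured 3116 ± 133 in Grn knockout animals and 3012 ± 72.1 in double knockout animals (-0.05, interval -0.17 to 0.07). Npc2, a lysosomal cholesterol carrier, had -0.11 (interval -0.48 to 0.25).

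Cln3, whose loss causes a juvenile storage disease in humans, measured 124, 131, 138 and 137 against 117, 118.0, 113 and 118.2. The groups did not overlap, and the difference was -0.18 (SE 0.10, limma adjusted p = 0.764). Atp6v0e2, a subunit of the vacuolar proton pump, had the largest positive difference of the list, 3857 ± 347 against 4434 ± 201 (0.20, limma adjusted p = 0.764). The 12 tested autophagy genes had a median of 0.01, and Optn, an autophagy receptor, had 0.15.

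**Figure D3:**
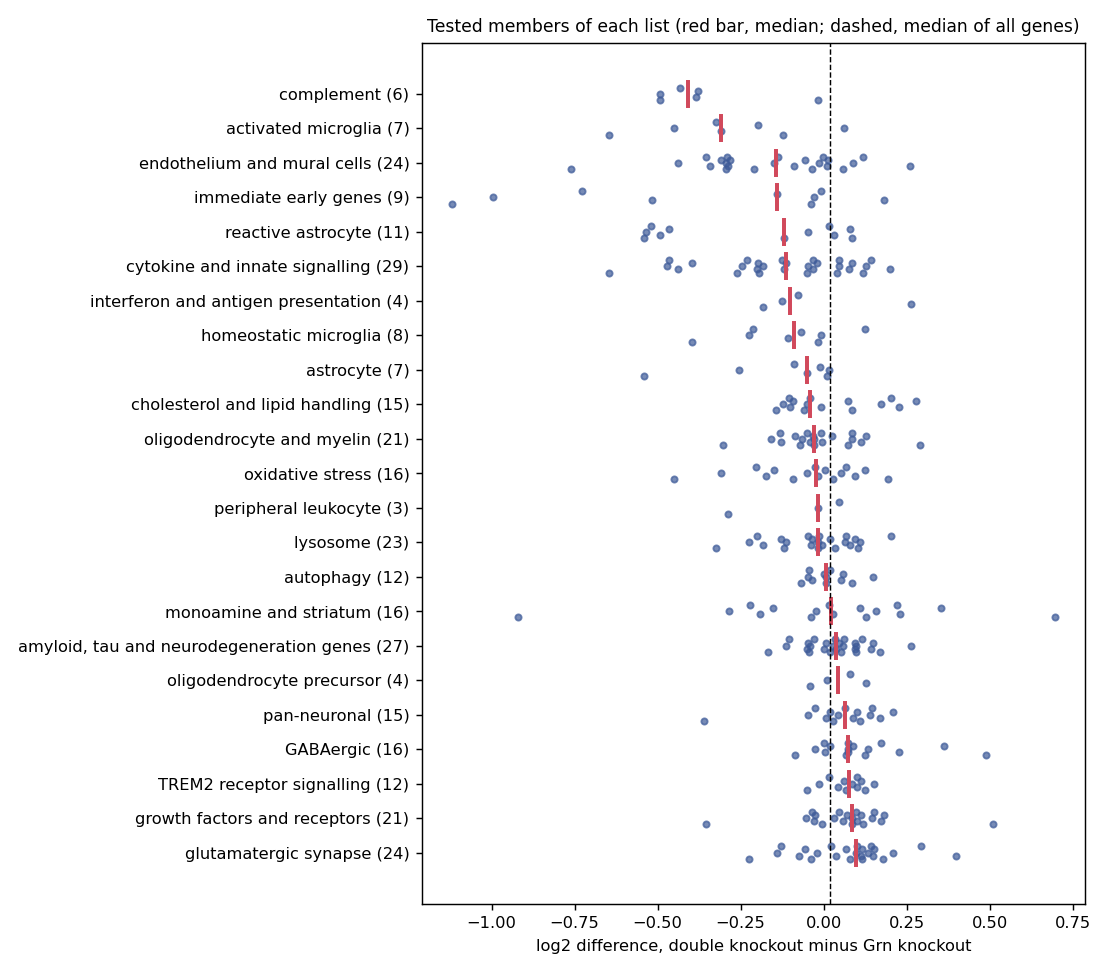
Log2 difference between the double knockout and the Grn knockout for the tested members of each gene list, with the number of members in brackets (some genes are in several lists); red bars are list medians and the dashed line is the median of all tested genes, 0.02. The complement median lies at -0.41 and the activated microglia median at -0.31, while the lysosome median lies at -0.02 and the glutamatergic synapse median at 0.10.

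Tgfb1, a cytokine that maintains the resting state of microglia, was among the genes with the smallest p after C1qb. It measured 73.5, 69.9, 65.0 and 93.2 in the Grn knockout and 61.2, 56.1, 52.9 and 46.2 in the double knockout. All double knockout animals were lower, but Tgfb1 did not pass (-0.47, SE 0.12, limma adjusted p = 0.216). Tnfrsf11b, a decoy receptor of the TNF family, had -0.44 (limma adjusted p = 0.641). Of 29 tested cytokine and innate signalling genes, 0 passed, 20 lay below 0 and the median was -0.11. With quantile normalization 16 lay below 0 and the median was -0.02, and with background subtraction the median was -0.20.

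Interferon genes were few. Psmb9, of the immunoproteasome, measured 39.6 ± 5.83 and 48.2 ± 10.7 (0.26, limma adjusted p = 0.764). Of 3 tested markers of peripheral leukocytes, 0 passed, and the summed level of the 5 measured ran from 175 to 274 in the Grn knockout and from 191 to 217 in the double knockout. Itgam, also on the complement and homeostatic microglia lists, is part of this sum. It averaged 115 and 112 in these groups, where the mean sums were 229 and 206.

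Genes of reactive astrocytes included several with lower values in the double knockout. Gfap, the intermediate filament of astrocytes, measured 914, 1092, 1242 and 1076 in the Grn knockout and 906, 691, 695 and 681 in the double knockout. The groups were separated by a small margin, since double knockout replicate 1 lay close to the lowest Grn knockout animal (-0.54, SE 0.19, limma adjusted p = 0.492). Cp, the copper oxidase ceruloplasmin, measured 162, 189, 172 and 175 against 153, 118, 104 and 114, also without overlap (-0.52, SE 0.13, limma adjusted p = 0.216), and passed when the animals were weighted (adjusted p = 0.0392).

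Hspb1, a small heat shock protein, measured 152 ± 42.3 and 102 ± 15.3 with overlapping groups (-0.54, limma adjusted p = 0.525). Of 11 tested reactive astrocyte genes, 0 passed, 7 lay below 0 and the median was -0.12, which moved to -0.06 with quantile normalization and to -0.52 with background subtraction. Astrocyte identity genes had a median of -0.05 over 7 tested, and their summed level ran from 16241 to 17229 in the Grn knockout and from 15626 to 17105 in the double knockout. Sox9, a transcription factor of astrocytes, had -0.09, the calcium-binding protein gene S100b -0.05 (0.10 without Grn knockout replicate 3) and Gdpd2, a phosphodiesterase gene, -0.25 (limma adjusted p of 0.764 or more).

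Of 24 tested endothelium and mural cell genes, 0 passed, 18 lay below 0 and the median was -0.14 (16 and -0.05 with quantile normalization, 21 and -0.24 with background subtraction), and the summed level of the 25 measured was 2735 to 3176 in the Grn knockout and 2613 to 2847 in the double knockout. Slc2a1, the glucose transporter of the blood-brain barrier, measured 219, 331, 244 and 299 against 222, 222.5, 211 and 196. The spread came from the Grn knockout, and the groups overlapped (-0.34, limma adjusted p = 0.492). Esam, an adhesion molecule of endothelial junctions, had -0.29 and Flt1, a receptor for VEGF, -0.36 (limma adjusted p = 0.612 and 0.677).

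Myelin genes were near the Grn knockout level, with 14 of 21 below 0 and a median of -0.03. Mal, a myelin proteolipid, measured 1137, 1703, 1092 and 1335 against 1035, 1070.0, 998 and 1098. Only 1098 lay within the Grn knockout range, the other 3 values being under it (-0.30, SE 0.12, limma adjusted p = 0.599), and without Grn knockout replicate 2 the difference was -0.17. Galc, the lysosomal enzyme that degrades the myelin lipid galactosylceramide, had -0.13.

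Of 15 tested pan-neuronal genes 12 lay above 0 (median 0.06), of 24 glutamatergic synapse genes 17 (median 0.10) and of 16 GABAergic genes 14 (median 0.07), with 0 past the threshold in each, beside 55.9% above 0 over all genes. With quantile normalization these were 9, 17 and 11 genes, with medians of 0.03, 0.06 and 0.04. Grin2a and Grin2b encode regulatory subunits of the NMDA receptor. Grin2a measured 309 ± 48.1 in Grn knockout animals and 377 ± 41.9 in double knockout animals (0.29, limma adjusted p = 0.612). Grin2b measured 1407, 1213, 738 and 1319 against 1262, 1390.2, 1657 and 1728 (0.40, limma adjusted p = 0.677), with Grn knockout replicate 3 far below the others and a difference of 0.19 without it.

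Grin2d, another subunit of that receptor, was on the other side, at 84.8 ± 4.75 and 72.9 ± 11.6 (-0.23). Dlg4, the scaffold PSD-95 of excitatory synapses, had 0.21. Uchl1, a deubiquitinase of neurons, measured 37.4 ± 3.64 and 29.2 ± 5.74 (-0.36, limma adjusted p = 0.436) and passed when the animals were weighted (adjusted p = 0.0392). Its signal was above background in all 4 animals of both groups but in only 2 of 4 wild type animals. These values are therefore near the limit of measurement.

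Genes induced by neuronal activity varied widely between animals. Npas4, a transcription factor induced by calcium entry, measured 193, 195, 88.0 and 171 in the Grn knockout and 52.2, 53.2, 91.4 and 97.8 in the double knockout. All but 1 of the Grn knockout animals exceeded every double knockout animal (-1.12, SE 0.40, interval -1.97 to -0.27, limma adjusted p = 0.492). Fos, a subunit of AP-1, measured 285, 518, 188 and 489 against 76.3, 249.6, 293 and 152 (-0.99, SE 0.56, limma adjusted p = 0.764).

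Arc, a synaptic protein gene, had -0.73 and Egr1, a zinc finger factor, -0.52, with SEs of 0.46 and 0.35. Without double knockout replicate 1 the difference was -0.22 for Egr1 and -0.61 for Fos, and without Grn knockout replicate 4 it was -0.46 for Arc. Within the double knockout, replicates 2 and 3 had the 2 highest values of Fos, Arc and Egr1, but replicates 3 and 4 those of Npas4. Of 9 tested immediate early genes, 0 passed, 8 lay below 0 and the median was -0.14.

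**Figure D4:**
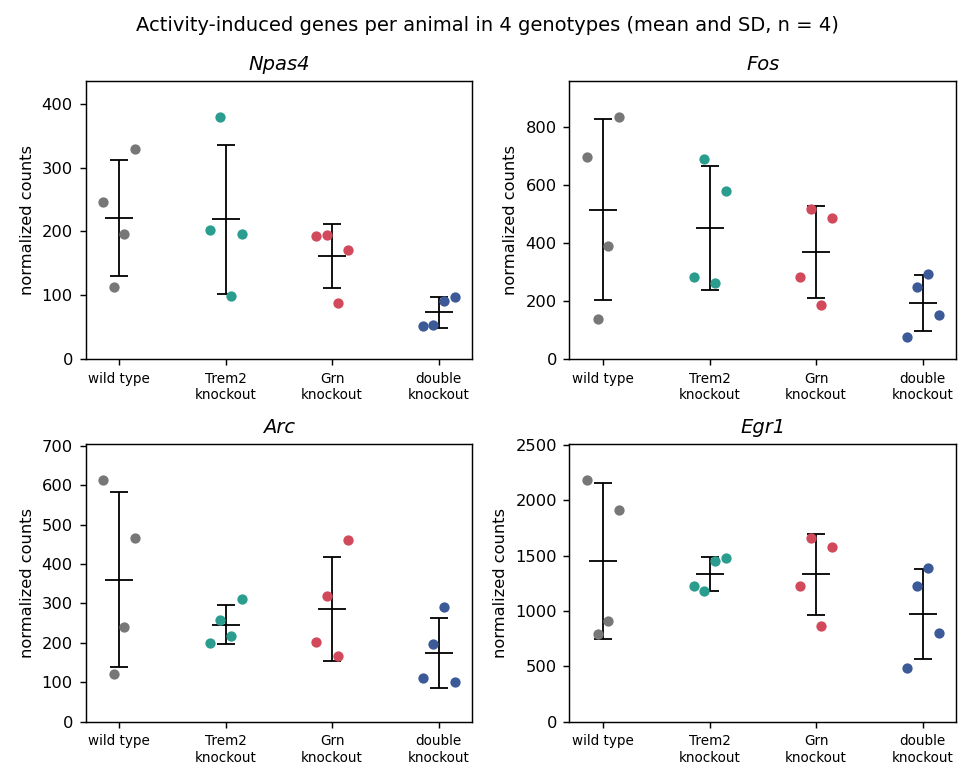
Normalized counts of Npas4, Fos, Arc and Egr1 in every animal of the 4 genotypes, on linear axes from 0; points are animals, and the bars give mean and SD. The double knockout has the lowest mean for each gene, and the animals of each genotype spread widely, with wild type Fos at 515 ± 313.

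The monoamine and striatum list, which also holds cholinergic and adenosine receptor genes, had the widest range of the lists, -0.92 to 0.70. Its median was 0.02 over 16 tested. Slc6a4, the serotonin transporter, measured 11.8, 26.5, 54.2 and 85.7 against 21.1, 13.5, 26.9 and 13.6 (-0.92, SE 0.56). Th, the rate-limiting enzyme of dopamine synthesis, measured 20.9, 91.1, 51.5 and 85.7 against 82.3, 141, 62.5 and 82.9 (0.70, SE 0.39). Without Grn knockout replicate 1 the difference for Th was 0.25, and without Grn knockout replicate 4 that for Slc6a4 was -0.50. Slc6a4 was above background in 3 Grn knockout animals and 1 double knockout animal. The groups overlapped for both genes, and neither passed (limma adjusted p = 0.764). Htr1a, a serotonin receptor, measured 210.2 ± 26.3 and 268 ± 22.3 (0.35, SE 0.11, limma adjusted p = 0.436), and Adora1, an adenosine receptor, had 0.16.

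Of the genes with higher values, Htt, the gene of huntingtin, had the smallest p. It measured 463, 424, 463 and 472 in the Grn knockout and 521, 556, 563 and 545 in the double knockout. The groups did not overlap, but it did not pass (0.26, SE 0.08, interval 0.09 to 0.44, limma adjusted p = 0.436). Dlat, a subunit of pyruvate dehydrogenase, had 0.15 (limma adjusted p = 0.574).

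Other genes whose double knockout animals all lay above the Grn knockout animals had small differences. Those named by the rule were Tor1a, an ATPase of the endoplasmic reticulum (0.22), Lypla1, a thioesterase (0.17), Cul1, a ubiquitin ligase scaffold (0.13), Gabrb2, a GABA-A receptor subunit (0.12), Cacnb4, a calcium channel subunit (0.12), Bcas2, a splicing factor (0.12), and Meaf6, of histone acetyltransferase complexes (0.08). Their limma adjusted p ran from 0.738 to 0.825. Lrp1, an endocytic receptor for APOE, had 0.20 with overlapping groups. The amyloid, tau and neurodegeneration list had 19 of 27 above 0 and a median of 0.04, with Hdac6, a tubulin deacetylase, at -0.17.

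A few remaining genes came near the background of the assay. Lox, an enzyme that crosslinks collagen, measured 30.4 ± 4.28 and 21.2 ± 3.55 without overlap (-0.50, limma adjusted p = 0.427), but was above background in 1 of 4 double knockout animals. Ngfr, the p75 neurotrophin receptor, measured 19.7 ± 5.62 and 28.0 ± 4.36 (0.51, limma adjusted p = 0.612) and was above background in 2 animals of each group. Hmox1, heme oxygenase, had -0.20 in an oxidative stress list with a median of -0.02, and the median was -0.04 for cholesterol and lipid genes, 0.09 for growth factors and 0.04 for oligodendrocyte precursor genes.

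The effect of Trem2 loss where progranulin was present was measured in the Trem2 knockout and wild type mice, whose levels do not enter the differences above but whose spread enters the same fit. C1qb differed there by -0.40 (SE 0.08, limma adjusted p = 0.0698), with all 4 Trem2 knockout animals below all wild type animals (as for 2.68% of tested genes), and by -0.43 without progranulin. The difference between the effects was -0.03 (95% confidence interval -0.28 to 0.22). C1qa had -0.20 with progranulin and -0.49 without (difference -0.30, unadjusted p = 0.105), C1qc -0.27 and -0.38 (unadjusted p = 0.468), and Cd68 -0.17 and -0.32 (unadjusted p = 0.354), all from limma.

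Of 708 genes, 1 passed with limma in the Trem2 knockout against wild type (0.141%), Trem2, and 33 had an unadjusted p under 0.05 (4.66%). For the difference between the effects 0 passed with limma, and 0 with voom on the recovered counts, while 24 had an unadjusted p under 0.05 (3.39%). Among the latter were Htt (difference 0.32), Dlat (0.24) and Ncf1 (-0.59), each with a limma adjusted p of 0.955. Over 706 genes other than Grn and Trem2 the effects had the same sign in 58.6%, with a Pearson correlation across genes of 0.24. Genes are not independent replicates, and all values share the same reference genes.

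**Figure D5:**
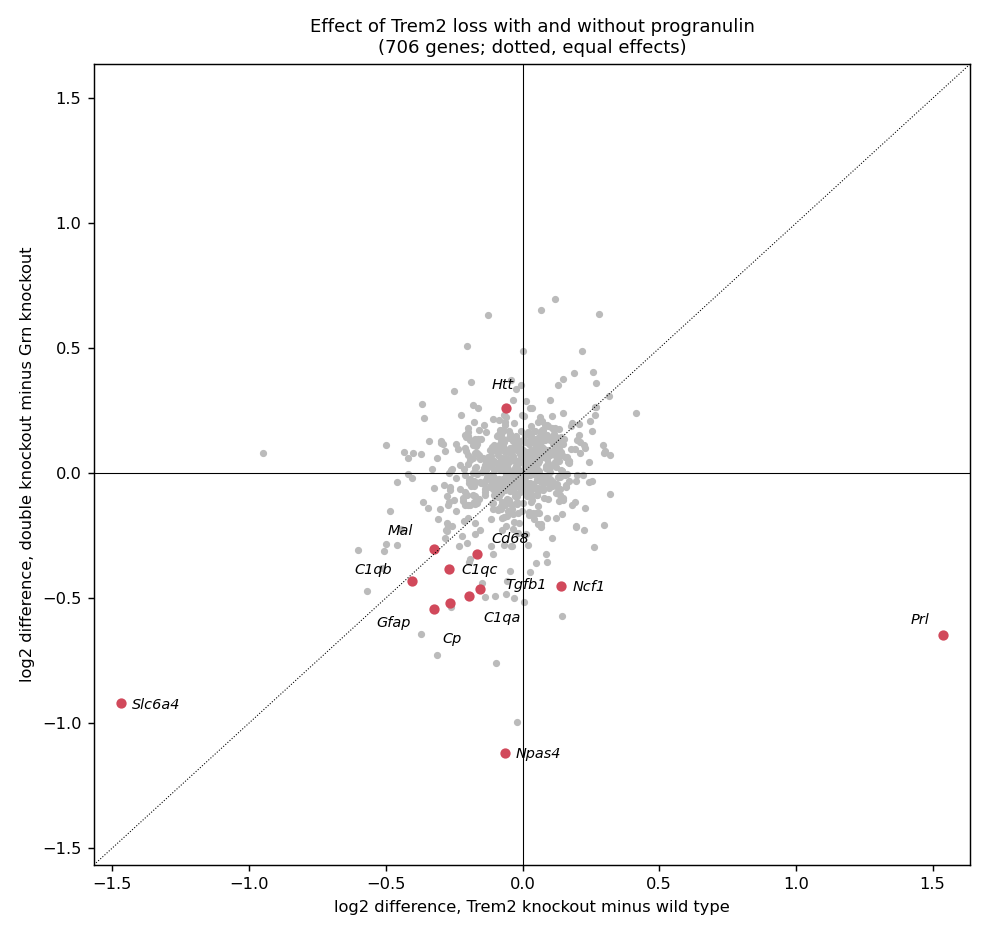
Log2 difference after Trem2 loss with progranulin (Trem2 knockout minus wild type, horizontal) and without it (double knockout minus Grn knockout, vertical) for 706 genes; the dotted line marks equal effects, and red points are labelled genes. C1qb lies close to the dotted line at -0.40 and -0.43, most genes lie near 0 on both axes, and Prl, chosen after its values were seen, stands apart at 1.54 and -0.65.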

How the data were processed

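Total RNA from the brains of 16 mice was counted on the nCounter Neuropathology panel. The deposited values were treated as a normalized signal. In the table the authors deposited, the signal of an animal equals whole counts times 1 scaling factor. The factor puts the geometric mean of 10 reference genes at 322 in all animals. This was read from the values. In each animal 99.74% or more of the values lay within 0.0075 of a whole count times the factor. Control probes are unscaled, and background was not subtracted. Lower counts widen the error, and values near the negative controls understate differences.

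Groups were taken from the labels. log2(value + 1) of the 708 genes with a mean of at least 20 was fitted with limma 3.58.1 in R 4.3.3 as 4 group means (12 residual degrees of freedom), with Benjamini-Hochberg adjustment and a threshold of 0.05. The script was tested on simulated data. Depth was compared by exact permutation over 70 arrangements (smallest p 0.0286). All 770 gene names matched RefSeq, 763 as symbols and 7 as synonyms. The design had planned a fit for counts as an alternative, and voom on recovered counts was run. Nothing states whether animals were littermates. The limma p-values set each difference against the spread between animals within genotypes, pooled over the 4 genotypes.

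Members and gene lists were chosen with earlier results of these data known. Named genes are Grn, Trem2, those past the threshold, up to 12 lower and 12 higher with the smallest p among genes without overlap, up to 4 per list with the smallest p, and a fixed set, of which some are printed; some results are not reported here.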

Additional observations from a re-analysis of the deposited data

Results flagged for a closer look

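Within a group of 4 animals, 1 animal stood far from the other 3 in 7 of 138 groups examined, where chance gives about 1 in 20 groups. Cd68 in Grn knockout replicate 2 was 220.4, above the others at 181.1 to 184.2. Csf1r in Grn knockout replicate 3 was 477, below the others at 549 to 553. Cln3 in double knockout replicate 3 was 113, below 117 to 118. Gfap in double knockout replicate 1 was 906, above 681 to 695. Gdpd2 in Grn knockout replicate 1 was 51.7, below 74.2 to 77.1. Flt1 in double knockout replicate 3 was 69.2, below 97.7 to 102. Slc17a6, a vesicular glutamate transporter chosen after its values were seen, was 1419.6 in double knockout replicate 4.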

How the results depend on the processing

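The 2 calls of double knockout against Grn knockout became 1 with only these 2 groups in the fit, with positive control scaling, and without the 2 animals with the fewest counts (chosen after seeing the data), C1qb being lost each time; animal weights gave 6 (C1qa, C1qb, C1qc, Cp, Trem2 and Uchl1). Leaving out 1 animal gave 1 to 3. Trem2 knockout against wild type gave 2 in place of 1 with a minimum mean of 50, trended robust variance or voom (C1qb added) and with positive control scaling (Prl, the prolactin gene, chosen after its values were seen), and 1 to 2 with 1 animal left out, C1qb being added without Grn knockout replicate 1 or replicate 4 and Slc17a6 without Trem2 knockout replicate 4. The difference between the Trem2 effects gave 1 with positive control scaling (Prl) in place of 0, and 0 with any 1 animal left out. Positive control scaling moved the median of all genes in Trem2 knockout against wild type to 0.24, and raised the median SE from 0.11 to 0.34.

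Of 69 genes, 62 kept their sign under every alternative run, and 32 moved by over 1.5 times when some 1 animal was left out. With quantile normalization list medians changed sign for cholesterol and lipid genes (0.02), peripheral leukocyte genes (0.02) and autophagy (-0.02). The autophagy list was also at -0.0007 when values were recentred on the median. The median of the monoamine and striatum list turned to -0.01 with background subtraction. Quantile normalization turned Itgam to 0.0236 and P2ry12 to 0.0737, and positive control scaling turned P2ry12 to 0.0045. Animal weights turned Fcrls to -0.0336 and S100b to 0.023, and leaving out the 2 animals with the fewest counts turned them to -0.14 and 0.16. With 1 animal left out, values ran from -0.10 to 0.11 for Itgam, -0.0612 to 0.0694 for P2ry12, -0.17 to 0.0040 for Csf1r, -0.0184 to 0.22 for Fcrls, -0.21 to 0.0016 for Npc2, -0.21 to 0.10 for S100b and -0.0948 to 0.0302 for Slc17a6. The difference in gene counts then ran from -25016 to 71860 and that in the positive control sum from -2672 to 3855. The cause was not tested. No paired analysis was possible because the labels give no replicate numbers shared between genotypes. The planned edgeR fits and DESeq2 were not run, because the values were handled as a normalized signal.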
